A study of Mus musculus with 12 samples.

Results

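The T cell receptor beta chains (TRB) whose CDR3 starts CA and ends EQYF were described in Rpl18 tetramer-binding CD8+ T cells of mice carrying MC38 tumors. Members were defined by the amino acids of the CDR3 alone, with no use of read counts: rows of the table of all chains that were in frame, held no stop or unread residue, started CA and ended EQYF. The rule took 997 rows of 8942 productive TRB rows, and 102222 of 746359 productive TRB reads. Rows of 1 CDR3 under several V names were pooled, which left 600 different nucleotide sequences and 381 different amino acid sequences. The deposited J name was TRBJ2-7 in 982 rows, TRBJ2-5 in 6 rows and missing in 9 rows, so the label fits the J call of nearly all members. V names were not used.

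The study sorted these cells on day 10 after injection of MC38, a transplanted mouse colon carcinoma line, from the tumor or from the tumor-draining lymph node (TDLN). The groups were KO tumor, WT tumor, KO TDLN and WT TDLN, with 3 libraries each. KO mice lacked TrIP, a membrane protein of T cells, in the CD8 lineage, and WT mice did not carry this deletion. All mice received MC38, and there was no group without tumor. The labels name neither the allele, nor the Cre driver, nor the age or strain, and they do not say whether libraries came from separate mice, so p-values measure only the spread between these libraries. Neither the deletion nor the CD8 identity could be checked here, because the files hold receptor sequences and no expression values. TRB rows were given for 8 of the 12 libraries: 3 KO tumor, 3 WT tumor, KO TDLN 3 and WT TDLN 4. The other 4, all from TDLN, are those noted as timed out in the deposited run log. The depth was lowest in WT TDLN 4, with 23755 productive TRB reads, and highest in WT tumor 4, with 188616. No molecular identifiers are described, so counts are of reads, and intervals (95%, exact binomial) and floors (3 reads) cover counting error only.

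A beta chain is built by joining a V, a D and a J segment, with bases trimmed and added at the joints. The CDR3 spans these joints and is the part of the chain that varies most, and it lies over the peptide in the complex of receptor and MHC. Its last residues come from the J segment. In mouse only TRBJ2-7 encodes an end of EQYF, and its untrimmed end within the CDR3 reads SYEQYF, so residues before EQYF show how far the J segment was trimmed. T cells of 1 clone carry the same CDR3 nucleotide sequence, while separate rearrangements can give the same amino acids through different bases.

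The nucleotide sequences of the largest member of each library are shown first, because in the tumor libraries they carry most of the EQYF reads. In the node libraries the largest amino acid sequence took less, 9.27% of EQYF reads in KO TDLN 3 and 46.7% in WT TDLN 4. Capitals mark the unbroken stretch from the 3′ end that follows the end common to the members (TCCTATGAACAGTACTTC, the commonest base at each position), which encodes SYEQYF. Members of 15 residues or more are called by the residues between CA and EQYF, and the shorter ones are written out.
SSPGQTSSY, largest in KO tumor 1: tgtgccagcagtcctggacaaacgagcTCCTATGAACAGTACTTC
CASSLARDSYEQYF, largest in KO tumor 2 and WT tumor 2: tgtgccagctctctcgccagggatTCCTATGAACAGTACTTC
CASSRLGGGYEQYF, largest in KO tumor 3 and WT tumor 3: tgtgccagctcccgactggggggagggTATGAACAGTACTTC
SSNRQGSSY, largest in WT tumor 4: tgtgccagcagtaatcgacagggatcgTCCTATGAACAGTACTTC
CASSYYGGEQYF, largest in KO TDLN 3: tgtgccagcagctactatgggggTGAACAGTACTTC
SSSPGQSSY, largest in WT TDLN 4: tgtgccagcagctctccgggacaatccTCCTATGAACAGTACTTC
In 4 of these 6 sequences the whole common end of 18 bases was present, in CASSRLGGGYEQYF 15 bases of it, and in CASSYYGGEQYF 13 bases.

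EQYF chains ranged from the leading class of a library to nearly none. Of its productive TRB reads, KO tumor 1 had 37.5% in EQYF chains (interval 37.2% to 37.8%), KO tumor 2 had 0.0217% (0.0136% to 0.0329%) and KO tumor 3 had 3.76% (3.65% to 3.87%). WT tumor 2 had 60.3% (59.9% to 60.7%), WT tumor 3 had 0.00489% (0.00133% to 0.0125%) and WT tumor 4 had 11.1% (10.9% to 11.2%). Both genotypes thus held a library rich in EQYF chains and a library with almost none, and the groups overlapped. KO tumor 2 had 22 member reads and WT tumor 3 had 4, so values within the class in these libraries rest on very few reads. In the draining node KO TDLN 3 had 11.2% (11.0% to 11.4%) and WT TDLN 4 had 9.14% (8.77% to 9.51%), with no replicate of either.

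**Figure D1:**
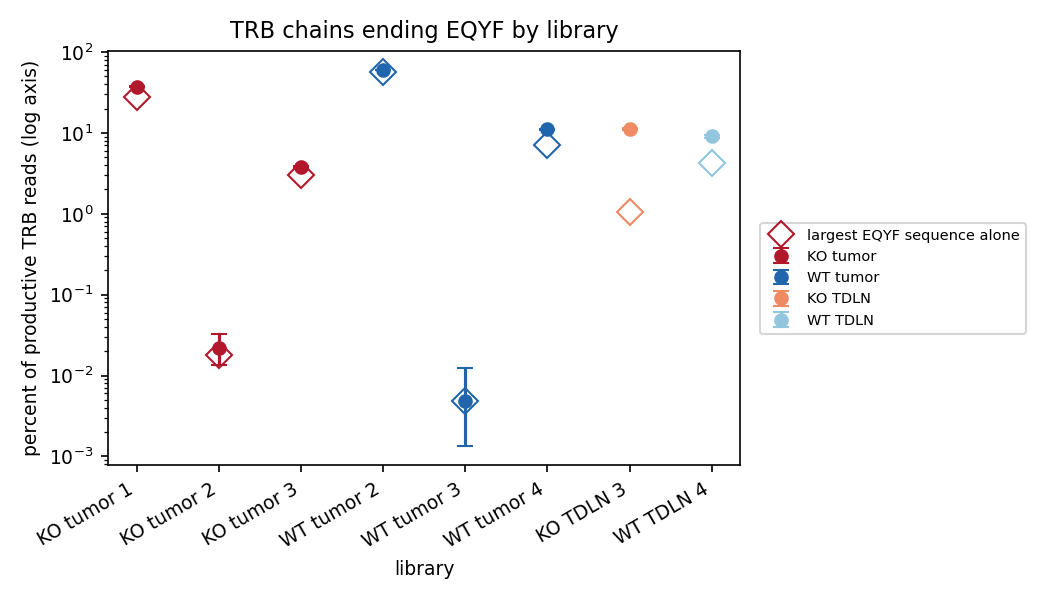
Share of productive TRB reads taken by EQYF chains (filled circles, with exact 95% binomial intervals) and by the largest EQYF amino acid sequence alone (open diamonds), on a log axis, for each library with TRB rows. In the 6 tumor libraries the diamond lies close under the circle, while in KO TDLN 3 the largest sequence took 1.04% against 11.2% for the class.

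Classed by the last 4 residues of the CDR3, EQYF was the commonest end in WT tumor 2. It was the second in KO tumor 1, the third in WT tumor 4 and the fourth in both node libraries. In KO tumor 3 it ranked 6, in KO tumor 2 it ranked 10 and in WT tumor 3 it ranked 22. The libraries poor in EQYF were led by ends TQYF, the end of TRBJ2-5, at 61.2% in KO tumor 2, 66.3% in KO tumor 3 and 80.3% in WT tumor 3. TQYF took 6.42% in KO tumor 1, 14.6% in WT tumor 2 and 21.1% in WT tumor 4. Shares of 1 library sum to a whole, so a high share of one end lowers the others.

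Few amino acid sequences held most EQYF reads of each tumor library. The largest member took 75.0% of EQYF reads in KO tumor 1, 81.8% in KO tumor 2 and 80.4% in KO tumor 3, against 94.6% in WT tumor 2, 100% in WT tumor 3 and 63.5% in WT tumor 4. With that sequence left out, the EQYF share of productive TRB reads was 9.37%, 0.00395% and 0.736% in KO tumor 1, 2 and 3, against 3.24%, 0% and 4.04% in WT tumor 2, 3 and 4. Members at 1% or more of productive TRB reads numbered 4, 0 and 1 in KO tumor 1, 2 and 3, against 2, 0 and 2 in WT tumor 2, 3 and 4. The node libraries were more even. In KO TDLN 3 it took 8 sequences to reach 50% of EQYF reads and 21 to reach 90%, and 26 sequences were at 0.1% or more of productive TRB reads. In WT TDLN 4 these numbers were 2, 7 and 9. In each tumor library 1 sequence held over 50% and 1 to 3 held over 90%. Tumor and node were not tested against each other, since only 1 node library of each genotype had TRB rows.

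**Figure D2:**
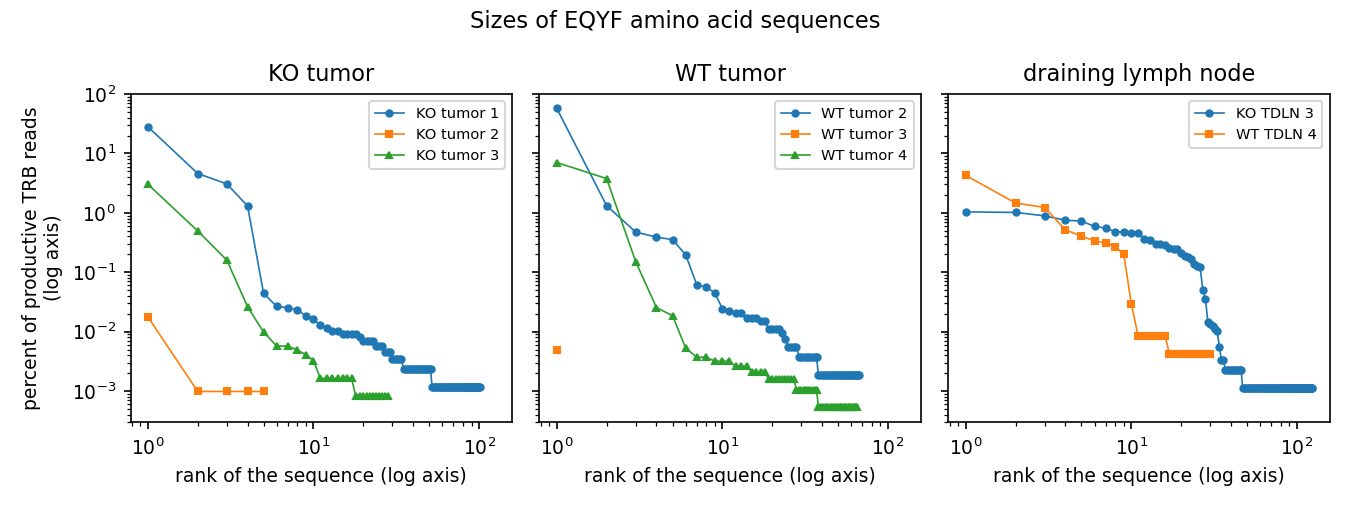
Share of productive TRB reads (log axis) of each EQYF amino acid sequence against its rank in the library (log axis), for KO tumor, WT tumor and draining node libraries. Tumor libraries drop steeply after the first 1 to 4 sequences, while in KO TDLN 3 the first 26 sequences stay at 0.1% or more.

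In KO tumor 1 the leading member SSPGQTSSY took 28.1% of productive TRB reads (27.8% to 28.4%). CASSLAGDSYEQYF followed with 4.59%, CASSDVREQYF with 3.07% and SSNRQGSSY with 1.30%, and the fifth member was at 0.0440%. KO tumor 2 had 18 reads of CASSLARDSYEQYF (0.0178%) and 1 read each of 4 other members, among them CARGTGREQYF and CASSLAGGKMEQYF. In KO tumor 3 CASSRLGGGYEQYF took 3.02% (2.93% to 3.12%), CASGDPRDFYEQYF 0.496% and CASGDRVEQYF 0.160%. The last of these is 11 residues long, and the first 2 have 14.

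In WT tumor 2 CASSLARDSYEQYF took 57.1% of productive TRB reads (56.6% to 57.5%). SSLTGTNFY had 1.32% and SSQEATGGSSY, a chain of 17 residues, 0.474%. WT tumor 3 held only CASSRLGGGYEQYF, with 4 reads. In WT tumor 4 SSNRQGSSY took 7.02% (6.91% to 7.14%) and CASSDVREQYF 3.77% (3.68% to 3.85%), and the third, SSNRHGSSY, had 0.150%. WT tumor 2 and KO tumor 1 were thus carried by different chains, although both were rich in the class.

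In KO TDLN 3 the 3 largest members were close in size: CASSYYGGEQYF with 1.04%, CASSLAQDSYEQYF with 1.01% and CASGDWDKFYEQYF with 0.889% of productive TRB reads. Their intervals were 0.973% to 1.11%, 0.949% to 1.08% and 0.829% to 0.953%, so the first and the second do not differ beyond counting error. In WT TDLN 4 SSSPGQSSY took 4.26%, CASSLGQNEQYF 1.46% and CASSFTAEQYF 1.23%. None of these 3 had a read in any other library, which allows up to 0.00159% (WT tumor 4) to 0.00562% (WT tumor 2) there.

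KO was compared with WT in tumor to ask whether loss of TrIP goes with another use of this chain class. None of 10 measures differed beyond the spread between libraries by exact two-sided permutation tests (smallest possible p 0.1, with Benjamini-Hochberg adjustment over all 13 tests run). The EQYF share of productive TRB reads was 13.8% ± 20.6 in KO and 23.8% ± 32.1 in WT tumor (SD, n = 3 each), a difference of -10.0 points (exact p = 0.7, adjusted 0.975). Its direction rests on WT tumor 2, without which the difference was 8.23 points. Members made up 7.80% ± 8.85 of the different productive TRB sequences in KO and 13.5% ± 13.7 in WT (exact p = 0.7; the difference was 1.40 points without WT tumor 2 and -5.65 with it). In KO tumor 1, 2 and 3 this share was 17.8%, 0.832% and 4.80%. In WT tumor 2, 3 and 4 it was 27.6%, 0.158% and 12.6%. The share of sequences and the share of reads thus gave the same order of the libraries. The 2 shares are not separate measures, because 67.0% of member sequences counted by library were 1 base from a sequence at least 100 times more abundant. With these added to the more abundant sequence, the KO minus WT difference in the share of sequences was -5.68 points.

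The number of different EQYF nucleotide sequences was 162, 5 and 48 in KO tumor 1, 2 and 3, against 108, 1 and 111 in WT tumor 2, 3 and 4, with 170 in KO TDLN 3 and 41 in WT TDLN 4. At the depth of the smallest tumor library, 4 member reads, the expected number was 1.78 ± 0.106 in KO and 1.38 ± 0.476 in WT (exact p = 0.4, n = 3 each). At the depth of 4594 reads it was 53.2 in KO tumor 1 and 48 in KO tumor 3, against 40.2 in WT tumor 2 and 46.1 in WT tumor 4 (difference 7.46, exact p = 0.333, the smallest that 2 against 2 libraries allow). Rarefied further to 2170 reads, KO TDLN 3 had 66.1 and WT TDLN 4 had 41, against 26.5 to 33.0 in the 4 tumor libraries with that many reads.

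Clonality, which is 1 minus the Shannon entropy over the logarithm of the number of sequences, was 0.718 ± 0.147 in KO (n = 3) and 0.870 ± 0.0735 in WT tumor (n = 2). WT tumor 3 has 1 sequence and no such value (exact p = 0.4). By library it was 0.810, 0.549 and 0.796 in KO tumor 1, 2 and 3, against 0.922 and 0.818 in WT tumor 2 and 4. KO TDLN 3 had 0.370 and WT TDLN 4 had 0.458, both below each of the tumor values. The largest sequence took 79.1% ± 3.60 of EQYF reads in KO and 86.0% ± 19.7 in WT tumor (exact p = 0.5, n = 3 each; difference -6.95 points). It was 0.0338 points without WT tumor 3 and -18.2 without WT tumor 4 (exact permutation p = 0.1, the smallest possible).

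Member CDR3s were 9 to 17 residues long, with a median of 14. Of the 381 amino acid sequences, 40.2% had 14 residues and 33.1% had 15. These shares include sequences 1 base from one at least 100 times more abundant, which have the length of that sequence. Without them 164 were left, also of 9 to 17 residues with a median of 14, and their shares at each length were not counted. Weighted by reads the mean length was 14.5, 13.8 and 13.8 residues in KO tumor 1, 2 and 3, against 14.0, 14.0 and 13.6 in WT tumor 2, 3 and 4 (difference 0.18, exact p = 0.7, and -0.06 without KO tumor 1). A library's lengths followed its leading chain: 79.2% of EQYF reads of KO tumor 1 had 15 residues, and 96.1% of those of WT tumor 2 had 14. WT tumor 4 split into 65.3% of 15 residues (SSNRQGSSY) and 34.4% of 11 residues (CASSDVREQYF). KO TDLN 3 spread over more lengths, with 43.0% at 14, 19.8% at 12, 11.3% at 13 and 9.22% at 10 residues.

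**Figure D3:**
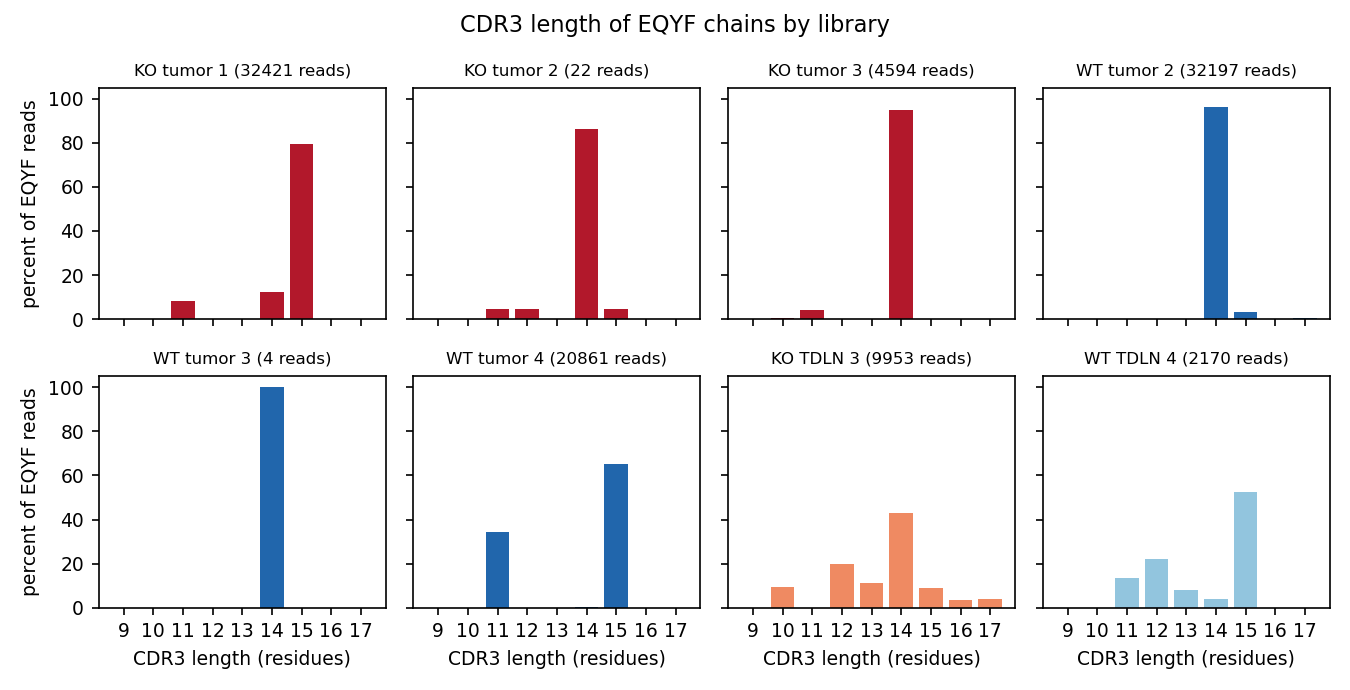
Percent of EQYF reads at each CDR3 length in residues, by library, with the number of member reads in each title. Most tumor libraries show 1 tall bar, at 14 or 15 residues, WT tumor 4 shows 2, and the node libraries spread over several lengths.

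Counted by sequence, EQYF chains were shorter than the other productive TRB chains of the same library in 6 of 6 tumor libraries. The means were 13.9 ± 0.384 residues for EQYF and 14.7 ± 0.353 for other TRB (SD, n = 6), a difference of -0.86 (exact two-sided sign-flip permutation p = 0.0312, the smallest possible, adjusted 0.406, so it did not pass the correction). Differences by library ranged from -1.29 in WT tumor 4 to -0.61 in KO tumor 3. WT tumor 3 had 1 EQYF sequence and KO tumor 2 had 5, yet each counted as a full library. The sequence of WT tumor 3 was also the largest of KO tumor 3, with the same bases, so these libraries were not fully independent. The rule fixes the J end of the members, and its part in the difference was not tested. Chains ending DTQYF averaged 14.2, 14.4 and 14.2 residues in KO tumor 1, 2 and 3, against 14.1, 15.0 and 14.9 in WT tumor 2, 3 and 4. In KO tumor 1 (14.2 for EQYF) and WT tumor 2 (14.3 for EQYF) they were thus about as long as the members. Those with TRBJ1 cluster ends averaged 13.8 to 15.6. Neither reads per sequence nor the share of sequences with 1 read differed between EQYF and other TRB beyond the spread between libraries (exact p = 0.406 and 0.562, n = 6). Sequences with 1 read made up 48.5% ± 26.2 of EQYF and 56.6% ± 4.00 of other TRB sequences.

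The joint with the J segment was read from the common 3′ end. Nucleotide sequences 1 base from a sequence at least 100 times more abundant in the same library were left out here as variants, which left 192. Of these, 29.2% (56) kept all 18 bases and so the whole end SYEQYF, and the median was 15. In 36 sequences the match broke within the 12 bases that encode EQYF, and 33 of these had 1 read in all. Members must encode EQYF, so such a break could fall only at the third base of a codon. How far the J segment was trimmed was not read from these 36. They stay among the 192, where the 29.2% and the median count them as short matches. Among 164 amino acid sequences, 39.0% ended SYEQYF and 68.3% ended YEQYF. By reads the whole end SYEQYF was present in 91.4%, 81.8% and 0.0218% of EQYF reads of KO tumor 1, 2 and 3, against 96.6%, 0% and 65.4% in WT tumor 2, 3 and 4. Means were 57.8% ± 50.2 in KO and 54.0% ± 49.3 in WT (exact p = 0.9, n = 3 each), and the direction of the difference, 3.74 points, turned without any 1 of KO tumor 1, KO tumor 2 or WT tumor 3 (-13.1, -8.29 and -23.3). The libraries at or near 0% are those led by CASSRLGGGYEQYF, whose J end starts at Y.

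**Figure D4:**
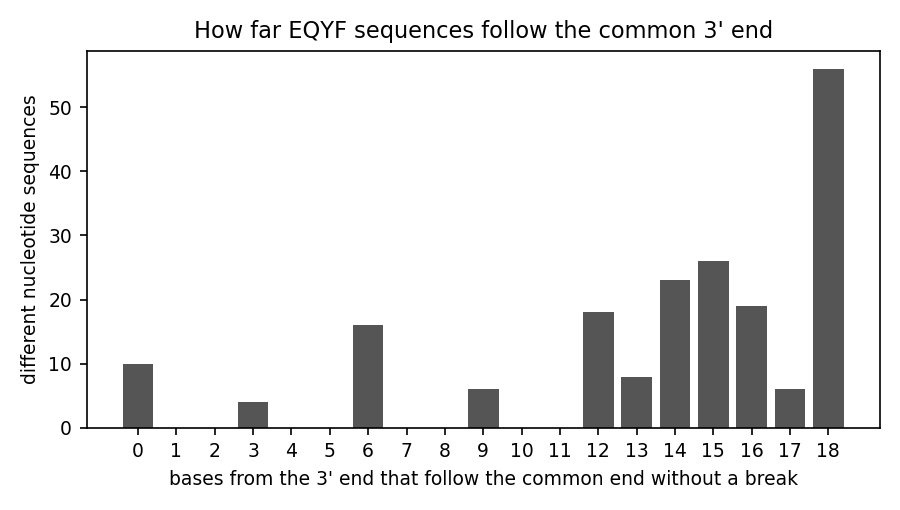
Number of different EQYF nucleotide sequences (variants left out, 192 in all) by how many bases from the 3′ end follow the common end without a break. The tallest bar, 56 sequences, is the whole end of 18 bases.

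At the 5′ side of the joint, 62.8% of these 164 amino acid sequences started CASS and 10.4% CASG. Among 1220 other TRB sequences, with variants also left out, the shares were 55.4% and 5.82%. The start CAW was found in 2.44% of EQYF and 7.54% of other TRB sequences. Members must start CA by the rule and the others need not, so the rule itself bears on the shares of these starts. In the middle, GG, which both mouse D segments can encode, was found in 18.3% of EQYF and 33.8% of other TRB sequences. By library and with variants kept, the order turned in KO tumor 3 (64.6% of EQYF and 49.7% of other TRB nucleotide sequences). It also turned in KO TDLN 3 (27.1% and 25.5%) and in WT tumor 3 with its 1 EQYF sequence. The other libraries kept it. Letters of the D segments were searched on the coding strand as 7 bases each. GACAGGG, from the first D segment, was in 8.85% of 192 EQYF and 7.51% of 1399 other TRB nucleotide sequences. GACTGGG, from the second, was in 9.90% and 14.4%, no sequence held both, and 81.2% of EQYF sequences held neither. These shares were not tested.

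By reads, GACTGGG was in 81.0% of EQYF reads of KO tumor 3 and in 100% (4 reads) of WT tumor 3, the libraries with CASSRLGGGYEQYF, and in at most 0.0802% of the other tumor libraries. GACAGGG was in 63.8% of EQYF reads of WT tumor 4, where SSNRQGSSY holds it, and in 0% to 4.55% of the other tumor libraries. KO minus WT was -6.30 points for GACTGGG (27.0% ± 46.7 in KO, 33.3% ± 57.7 in WT, exact p = 0.9) and -17.4 points for GACAGGG (4.10% ± 0.551 in KO, 21.5% ± 36.7 in WT, exact p = 1). For GG it was -5.17 points (28.6% ± 45.6 in KO, 33.8% ± 57.3 in WT, exact p = 0.9, n = 3 each). Each of these differences changed sign when a single library was left out: to 27.0, 7.17 and 7.21 points for GACTGGG without WT tumor 3, KO tumor 1 or KO tumor 2, to 27.9, 9.10 and 6.87 for GG without the same libraries, and to 3.80 for GACAGGG without WT tumor 4.

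Most EQYF amino acid sequences were found in 1 library. Of 381, 347 were in 1 library, 29 in 2, 4 in 3 and 1 in 4. The 381 include variants by the rule above, without which 164 were left, and sharing was not counted for those 164 alone. Of the 34 found in more than 1 library, 30 had the same nucleotide sequence in at least 2 of them. Among 28 pairs of libraries 18 shared no EQYF sequence, and WT TDLN 4 shared none with any other. KO tumor 1 and WT tumor 4 shared most, 17 amino acid sequences (16.8% of those of KO tumor 1 and 26.2% of those of WT tumor 4) and 27 nucleotide sequences. Of these 27, 23 were variants by the rule above in both libraries. The shared amino acid sequences held 24.1% of EQYF reads of KO tumor 1 and 99.3% of those of WT tumor 4. Among them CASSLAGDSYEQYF held 12.2% of EQYF reads of KO tumor 1, but WT tumor 4 had 3 reads of it, with other bases. Sharing was counted for EQYF chains only, with no such count for other TRB sequences, so it does not set this class apart. Carriage of reads between libraries was not tested, and the labels do not say whether libraries share mice.

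**Figure D5:**
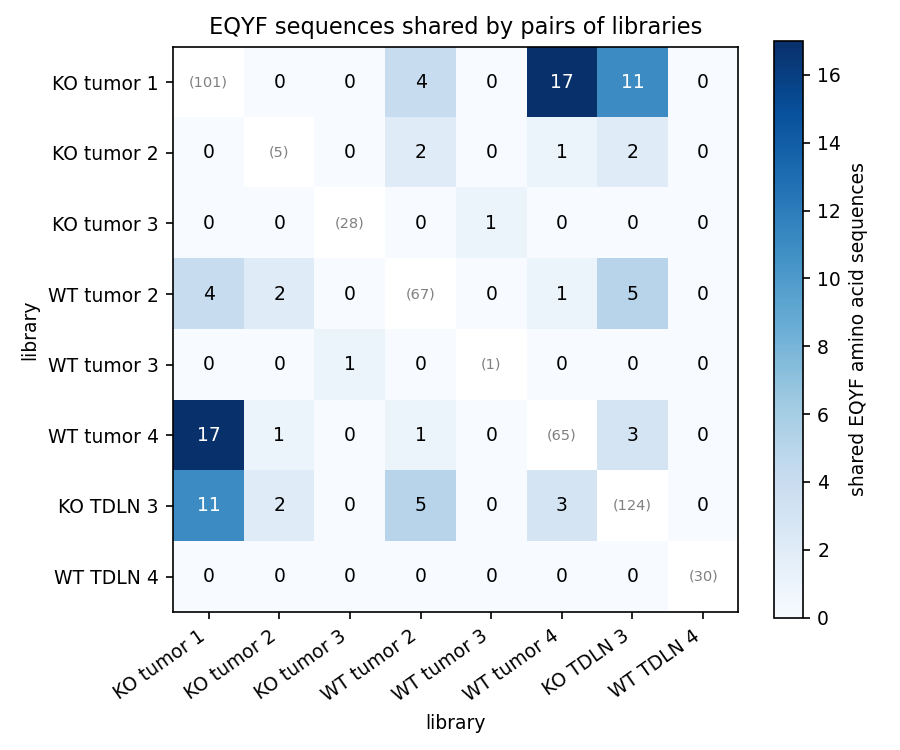
Number of EQYF amino acid sequences found in both libraries of each pair, with each library's own number in brackets on the diagonal. The pair KO tumor 1 and WT tumor 4 stands out with 17, followed by KO tumor 1 and KO TDLN 3 with 11.

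The chains common to KO tumor 1 and WT tumor 4 are shown here because they are large in both, with the same bases in each.
SSNRQGSSY, 1117 reads in KO tumor 1 and 13134 in WT tumor 4: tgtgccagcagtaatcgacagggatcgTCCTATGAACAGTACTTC
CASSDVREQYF, 2639 reads in KO tumor 1 and 7073 in WT tumor 4: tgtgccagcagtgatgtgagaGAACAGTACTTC
With all nucleotide sequences pooled, SSNRQGSSY took 1.30% of productive TRB reads in KO tumor 1 and 7.02% in WT tumor 4, and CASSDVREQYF took 3.07% and 3.77%. SSNRQGSSY was thus the smaller of the pair in KO tumor 1 and the larger in WT tumor 4. KO TDLN 3 held 1 read of each, and the other libraries held none.

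KO tumor 1 and KO TDLN 3 shared 11 amino acid sequences, which held 98.9% of EQYF reads of KO tumor 1 and 37.3% of those of KO TDLN 3. The chains named next were large in 1 of these libraries and rare in the other. SSPGQTSSY had 24320 reads in KO tumor 1 and 13 in KO TDLN 3. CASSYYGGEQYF, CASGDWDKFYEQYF and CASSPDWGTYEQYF had 1 read each in KO tumor 1, against 923, 790 and 665 reads in KO TDLN 3. Other chains linked other pairs. KO tumor 2 held 18 reads of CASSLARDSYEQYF, KO TDLN 3 held 45 (0.0507%) and WT tumor 2 held 30468, with the same leading bases in each. SSLTGTNFY had 1 read each in KO tumor 2 and KO TDLN 3, against 704 reads in WT tumor 2. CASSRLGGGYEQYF had 3695 reads in KO tumor 3 and 4 in WT tumor 3. KO TDLN 3 and KO tumor 3, which share a library letter, had no EQYF sequence in common, and neither had WT TDLN 4 and WT tumor 4.

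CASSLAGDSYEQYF was the EQYF sequence found in most libraries. KO tumor 1 held 3965 reads of it, WT tumor 2 held 11, and WT tumor 4 and KO TDLN 3 held 3 each. The bases were those of KO tumor 1 in KO TDLN 3, and they differed from them at 2 positions in WT tumor 2 and at 1 in WT tumor 4. The 11 reads of WT tumor 2 are a variant, 1 base from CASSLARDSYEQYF there. Sequences CASSLAxDSYEQYF, with any residue at x, were set beside each other after their values were seen. The form with R was the largest member of WT tumor 2, that with G the second of KO tumor 1 and that with Q the second of KO TDLN 3, with different bases.
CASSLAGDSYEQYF, KO tumor 1: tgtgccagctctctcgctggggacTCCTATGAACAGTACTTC
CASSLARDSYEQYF, WT tumor 2: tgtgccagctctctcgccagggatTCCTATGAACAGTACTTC
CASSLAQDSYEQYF, KO TDLN 3: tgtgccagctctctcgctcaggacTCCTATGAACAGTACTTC
The sequence with G differed from that with Q at 2 bases and from that with R at 3, and those with Q and R differed at 4. All 8 sequences of this form together took 4.59% of productive TRB reads of KO tumor 1 and 0.0178% of KO tumor 2, against 57.5% of WT tumor 2 and 0.00159% of WT tumor 4, with 1.07% of KO TDLN 3. KO tumor 3, WT tumor 3 and WT TDLN 4 had no such read. The forms with K, S, V and W were variants by the rule above in every library that held them. That with M was a variant in WT tumor 2 and had 1 read in KO TDLN 3.

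Variants 1 base from a sequence at least 100 times more abundant made up 433 of the 646 member sequences counted by library (67.0%), but 1.68% of member reads. Among other TRB sequences they made up 72.8%. By library their share of EQYF sequences was 67.9%, 0% and 79.2% in KO tumor 1, 2 and 3, against 69.4%, 0% and 72.1% in WT tumor 2, 3 and 4, with 65.9% in KO TDLN 3 and 43.9% in WT TDLN 4. Variants outnumbered the other EQYF sequences in 5 of 8 libraries, but not in KO tumor 2, WT tumor 3 or WT TDLN 4. The largest member had 18 reads in KO tumor 2 and 4 in WT tumor 3. No member there could thus be 100 times more abundant than another, and the 0% of these libraries does not measure how common variants are. Without variants 52, 5 and 10 sequences were left in KO tumor 1, 2 and 3, against 33, 1 and 31 in WT tumor 2, 3 and 4, 58 in KO TDLN 3 and 23 in WT TDLN 4. Transitions made up 62.6% of the variants, and C-to-T was the commonest change with 89. By reads T-to-C came first, with 51 variants and 22.6% of variant reads, followed by G-to-T with 44 variants and 20.7%. The largest variant, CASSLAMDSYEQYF in WT tumor 2, was a G-to-T change with 201 reads, 0.662% of its parent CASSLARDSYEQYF. SSNRHGSSY is also 1 base, a G-to-T change, from SSNRQGSSY, but stood at 2.07% of it in WT tumor 4 and at 3.31% in KO tumor 1, so the rule does not count it as a variant.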

How the data were processed

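TCR primers were used on polyA RNA, per the labels' protocols, and the submitters' processing notes name the build GRCm39. Per the file headers the table is a set of TRUST4 reports, with deposited read counts per CDR3 rearrangement and the authors' fraction of the chain. No source used here gives the TRUST4 version, and V names of TRB come largely from a human set. WT tumor 2 is numbered 1 there, and its rows were assigned through the library name.

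TRB rows were those with a TRB J or C name, a TRB V name where both were missing, or a CDR3 that met the member rule. Productive rows held 97.2% of 767594 TRB reads. From these counts shares, sizes, lengths and sharing were computed with Python 3.11.15, numpy 2.4.6, pandas 2.3.3 and scipy 1.17.1, and the functions were checked on made-up inputs with known answers. The fraction was used only as an alternative. Libraries were compared with exact permutation tests, and 13 p-values were adjusted by the Benjamini-Hochberg method. The number of sequences was rarefied analytically.

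Named sequences were the 3 largest members of each library and the 10 found in most libraries (ties by mean share). In KO tumor 2, 4 members tie at 1 read, and those given are the first in the alphabet. The form CASSLAxDSYEQYF and its member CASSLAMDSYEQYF were named after their values were seen. Members, lists and tests were chosen with earlier results of these data known. Same-numbered KO and WT libraries share only a number. Alternatives covered low counts, variants, shared sequences, the member rule, weights and single libraries.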

Additional observations from a re-analysis of the deposited data

Results flagged for a closer look

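Outside the member rule, 317 productive TRB reads in 98 rows end EQYF but do not start CA. No result above describes them as EQYF chains, although they count in the denominators, among the other TRB chains and in the ranks of the ends. They were found in 6 of the 8 libraries, KO tumor 1 with 141 and KO tumor 3 with 12 reads, WT tumor 2 with 19 and WT tumor 4 with 99, KO TDLN 3 with 37 and WT TDLN 4 with 9. Of the 98 rows, 90 are 1 residue from a member of the same library. The largest row has 69 reads.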

How the results depend on the processing

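Of 170 alternative values, 126 kept the direction and the side of the 0.05 level, 35 changed sign and 9 lost the level, all 9 of them for the length against other TRB with 5 libraries, where the smallest exact p is 0.0625. No KO minus WT measure could pass it at 3 against 3 libraries. With sequences under 0.01% left out, WT tumor 3 has no member, and the differences were 6.27 points for the largest sequence, -17.2 for SYEQYF, 26.5 for GG and 27.2 for GACTGGG, while the length against other TRB was -0.96 (exact permutation p = 0.0625). With sequences under several letters left out they were -20.9 points for the EQYF share, -0.0303 for the rarefied number, 10.0 for the largest sequence, -1.15 residues for length, -40.5 for SYEQYF and 3.88 for GACTGGG, with -0.68 for the length against other TRB (exact p = 0.0625). With members ending SYEQYF they were -1.89 residues, 0.0281 points for GACTGGG and -1.29 against other TRB (exact p = 0.125, not the smallest possible), and the rarefied number had no value at a depth of 1 read. The number as listed differed by -1.67. With each sequence counted once, length differed by -0.32 and SYEQYF by -11.2 points. With the replicate number as a block (numbers 2 and 3, smallest p 0.5) the EQYF share differed by -28.3 points, length by -0.20, SYEQYF by -7.40 and GACAGGG by 4.11. The block took the numbers of the titles. WT tumor 2 is numbered 1 in the deposited rows, so its pairing with KO tumor 2 rests on that choice. Clonality had no blocked value. The share of sequences with 1 read has no value under filters that remove those sequences. With only libraries of 1000 member reads or more, chosen after seeing the data, SYEQYF differed by -35.3, GG by 39.97 and GACTGGG by 40.55 points.

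Leaving out single libraries gave -21.9 to 8.23 points for the EQYF share, -12.3 to 1.40 for the share of sequences, 0.212 to 0.669 for the rarefied number, -18.2 to 0.0338 for the largest sequence, -0.204 to -0.0671 for clonality, -0.0612 to 0.301 residues for length, -23.3 to 32.6 for SYEQYF, -31.5 to 27.9 for GG, -28.1 to 3.80 for GACAGGG and -33.3 to 27.0 for GACTGGG. Against other TRB it gave -0.92 to -0.78 residues, -1.88 to -0.43 for log2 reads per sequence and -15.0 to 1.64 points for sequences with 1 read (1.64 without WT tumor 3). Other causes of these changes were not tested. Few member reads limit the values within the class in KO tumor 2 (22 of 101295 productive TRB reads) and WT tumor 3 (4 of 81792).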
